A study of Canis lupus familiaris with 14 samples.

Results

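The genes SOS1, SOS2, RASGRP1, RASGRP3, NRAS, BRAF, MAP2K1 and MAP2K2 encode consecutive steps of the route that carries a signal from a receptor at the cell surface to the kinase MEK. They were chosen by symbol. Every probe set that the annotation of the array pairs with exactly 1 of these symbols was taken, which gave 15 of 29254 probe sets with a single symbol. The log2 signals of the probe sets of a gene were averaged, so that the members are 8 of 15115 genes. All 8 members were bright enough to be tested, with a signal of at least 100 on at least 3 of 13 arrays, as were 9295 genes in all.

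RAS is a switch on the inner face of the cell membrane that is on while it holds GTP. Exchange factors turn it on. SOS proteins are brought to activated receptors by the adaptor GRB2, whereas RASGRP proteins are drawn to the membrane by diacylglycerol, which phospholipase C makes below the antigen receptors of lymphocytes. Active RAS recruits RAF kinases, RAF phosphorylates the MEK kinases and MEK phosphorylates ERK. Much of this route works through GTP loading and phosphorylation, neither of which an array measures, and the signals below stand for transcript abundance only.

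Signals came from 14 arrays, each hybridised with RNA of 1 lymph node fine needle aspirate. The tumours were aspirated before treatment in dogs that entered a dose-finding trial of a PI3K inhibitor at 3 clinics, named here FS, NE and RB as in the array names. The label B-cell lymphoma was given to 7 dogs (NE41, NE42, FS21, RB16, RB10, RB07 and RB03), of Boxer, Labrador Retriever, Pointer, Chesapeake Bay Retriever and mixed breeds, and that of T-cell lymphoma to 3 (FS22, a Beagle, FS25, a Boxer, and NE45, a Golden Retriever). The 4 normal arrays came from 3 disease-free Beagles of a single colony, named 0063, 2970 and 3024, the last of which gave nodes 3024l and 3024r. FS21, FS22, FS25 and RB07 were relapsed cases that had received chemotherapy earlier. The dogs' ages were not used here. The study's methods set apart FS21, NE42, RB03 and RB16, called the B-cell set here. These cases had to show mostly lymphoblasts by cytology and CD79a staining in most of them. They also had to lack a T-cell signature in their expression profile. The study's clustering of these and matched sequencing profiles gave the tumour classes E-J (FS21, NE41, NE42, RB03, RB16 and FS22) and K-N (RB07, RB10, FS25 and NE45). Because the classes were drawn from these profiles, values by class are a description with no test. All normals came from 1 colony and 1 breed, so disease and colony cannot be told apart. FS22 was the only Beagle among the dogs with lymphoma. Disease and breed thus can hardly be told apart over all lymphomas, and not at all in the B-cell set.

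The array medians lay between 85.5 and 131 signal units, and between 47.2 and 55.7% of probe sets reached a signal of 100. Normal node 3024l stood apart, with a GAPDH 3′/5′ ratio of 60.9 against 9.41 to 24.3 on the other arrays, and tests used 3024r for that dog. The ratio also differed between the groups tested. It was 9.41 to 13.8 on the 3 normal arrays of the tests. In the lymphomas it was 10.2 in FS21 and 14.1 to 24.3 in all others. Its part in the differences from normal was not tested. Lineage markers went against 3 labels in part. The T-cell receptor chain CD3E had a log2 signal of 12.11 in RB07 and 12.54 in RB10, both labelled B-cell, and of 8.80 in FS22, labelled T-cell, while the B-cell receptor chain CD79A was 8.06, 8.11 and 10.09 on the same arrays. MS4A1, which encodes the B-cell surface protein CD20, gave another picture, with 2.89 in RB07 but 10.40 in RB10 and 4.90 in FS22. For RB10 and FS22 this marker went with the label. The mean log2 signal of 8 B-cell markers ran from 8.56 to 10.44 in class E-J and from 4.00 to 7.34 in class K-N, against 8.51 to 9.26 in the normals. That of 15 T-cell markers ran from 6.47 to 7.95 in class E-J and from 10.43 to 10.83 in class K-N, against 8.86 to 10.17 in the normals. Myeloid and stromal marker means were lower on every tumour than on every normal: the highest tumour means were 9.41 over 11 myeloid and 8.98 over 8 stromal and endothelial markers, against lowest normal means of 10.18 and 9.84.

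The members differed widely in how much they varied. RASGRP3 had by far the widest spread, with an SD of 1.55 and a range of 4.90 on the log2 scale over the 14 arrays, and NRAS the narrowest SD, 0.37. Values of class E-J did not overlap those of class K-N for 3 of the 8 members, namely SOS1 and RASGRP3, higher in class E-J, and MAP2K1, lower in class E-J. For SOS1 and MAP2K1 this held for the mean of their probe sets and for 1 of 3 single probe sets each. Of all genes tested, 10.8% showed no overlap between these classes, 6.32% being higher and 4.48% lower in class E-J. Against the 4 normal arrays, class E-J lay wholly below for SOS1, SOS2 and MAP2K1 (15.3% of all genes showed no overlap, 7.96% lying below). Class K-N lay wholly below the normals for SOS1 and RASGRP3 and wholly above for RASGRP1 (16.0% of all genes showed no overlap, 9.04% lying below).

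**Figure D1:**
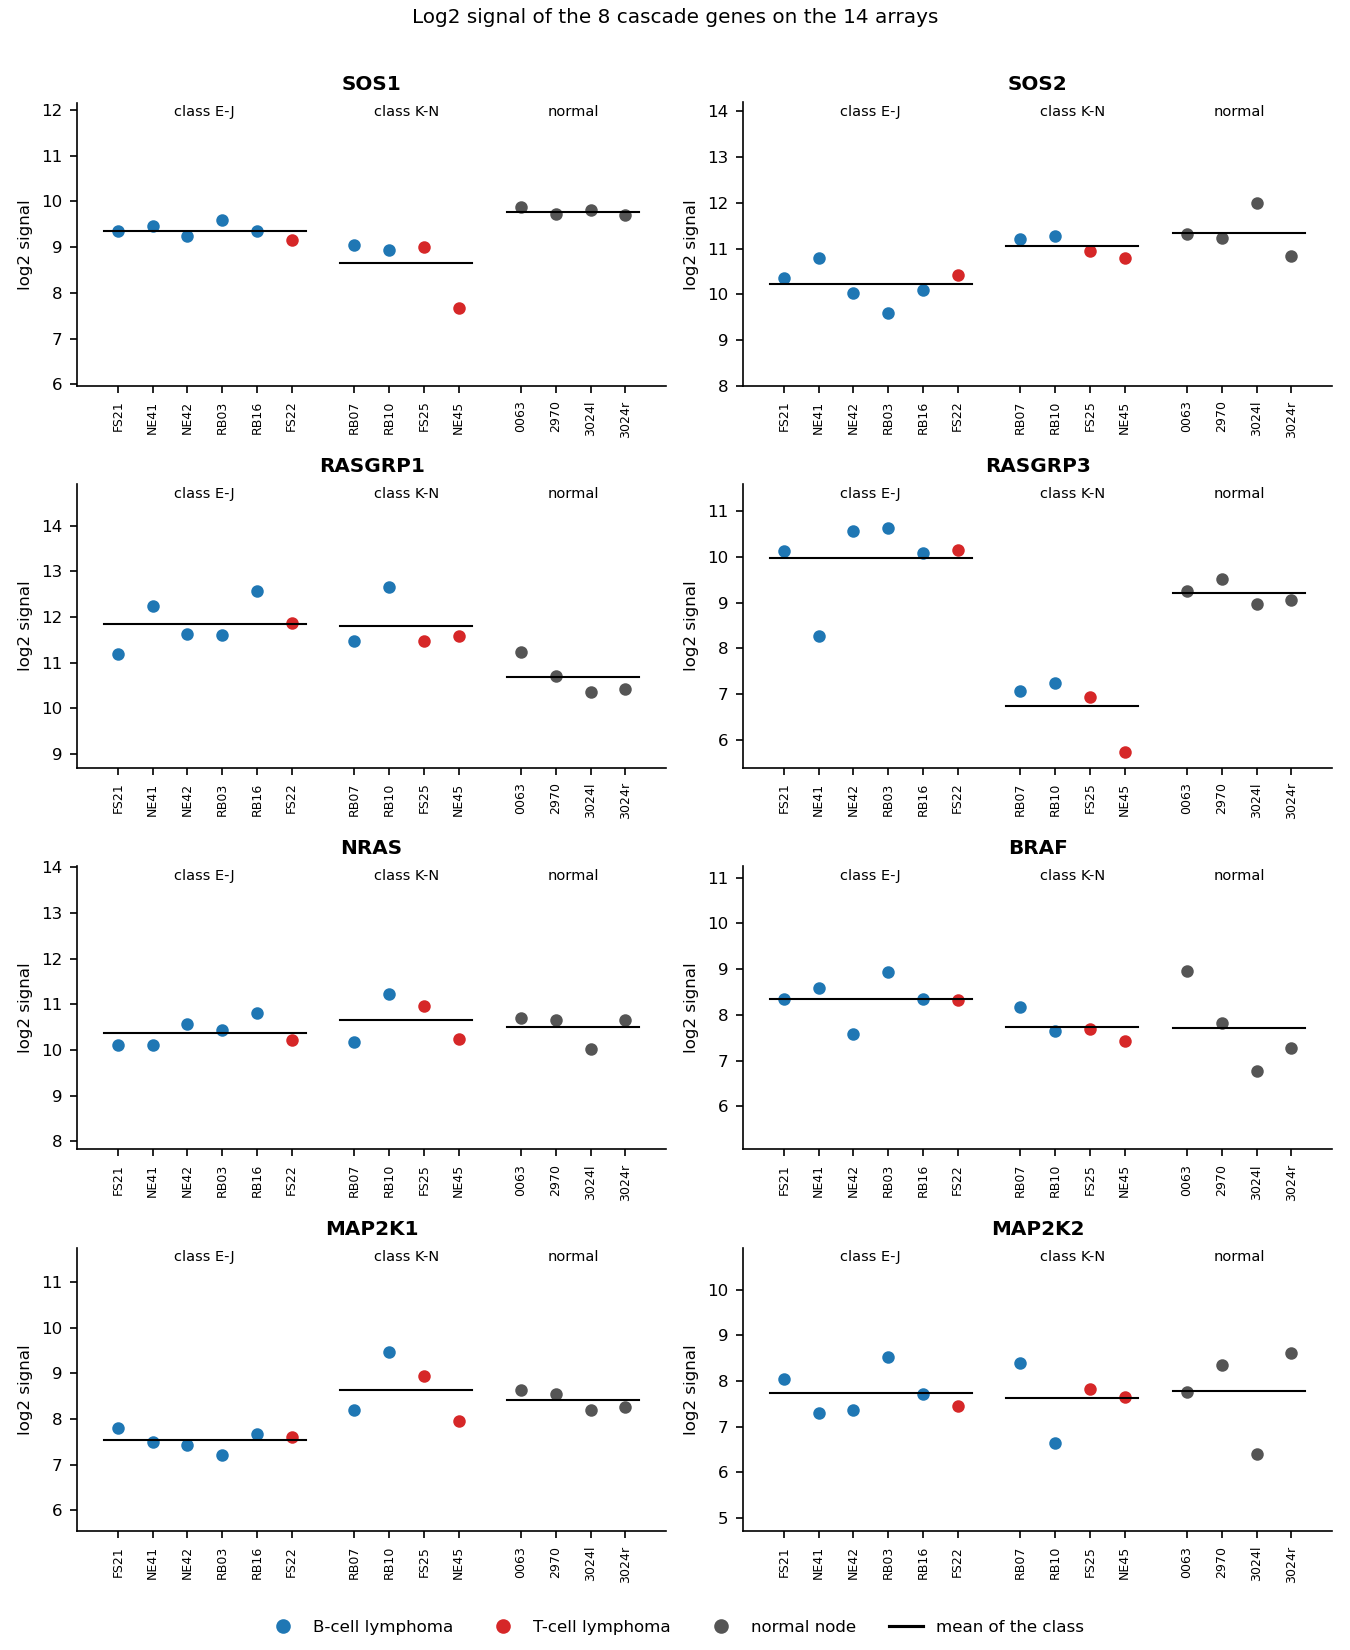
Log2 signal (y axis) of each member on each of the 14 arrays (x axis), with class E-J left, class K-N in the middle and normal nodes right. Points are single arrays coloured by diagnosis, black lines are class means, and every panel spans the same number of log2 units. RASGRP3 splits the classes most, with class K-N between 5.74 and 7.25 and class E-J between 8.26 and 10.64, while NRAS stays between 10.02 and 11.23 on all arrays.

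SOS1 (gene ID 483042, 3 probe sets) encodes a widely expressed exchange factor that GRB2 carries to receptor tyrosine kinases. Its log2 signal in class E-J ran from 9.15 in FS22 over a median of 9.36 to 9.59 in RB03. In class K-N it was 9.05 in RB07, 8.93 in RB10, 9.01 in FS25 and 7.66 in NE45, against 9.87, 9.72, 9.82 and 9.70 in normals 0063, 2970, 3024l and 3024r. In this mean of 3 probe sets, all 10 lymphomas lay below all 4 normals, and all of class K-N lay below all of class E-J. SOS1 was the only member for which the lymphomas and the normals did not overlap, as was the case for 9.50% of all genes tested, with 6.92% lower in the lymphomas. The 10 lymphomas averaged 9.08 ± 0.54 and the 3 normal dogs 9.76 ± 0.09 (SD), a log2 difference of -0.68 (95% interval -1.40 to 0.04), which did not pass the test (limma adjusted p = 0.27).

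The separation of SOS1 was uneven over its probe sets, and none of the 3 parted the lymphomas from all 4 normals when taken singly. Cfa.13872.1.A1_at lay between 5.72 and 8.54 in the lymphomas, against 8.68 or more in the 3 normal arrays of the test, but 3024l had 7.69. CfaAffx.10491.1.S1_s_at overlapped between lymphomas (8.83 to 10.83) and the same normals (10.13 to 10.51), as did CfaAffx.10496.1.S1_s_at, with 8.43 to 10.21 in the lymphomas and 9.92 to 10.27 in these normals. On 3024l the probe sets parted, with 11.98 for CfaAffx.10491.1.S1_s_at and 9.79 for CfaAffx.10496.1.S1_s_at. The lymphoma-minus-normal difference of CfaAffx.10491.1.S1_s_at was -0.22, against -1.18 for Cfa.13872.1.A1_at and -0.65 for CfaAffx.10496.1.S1_s_at. NE45 was the lowest array for all 3 probe sets.

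SOS2 (490682, 1 probe set) encodes the close relative of SOS1 with an overlapping role. In class E-J its log2 signal ran from 9.60 in RB03 over a median of 10.23 to 10.80 in NE41. Class K-N had 11.20, 11.28, 10.94 and 10.80 in RB07, RB10, FS25 and NE45, against 11.32, 11.22, 11.99 and 10.83 in the normals 0063, 2970, 3024l and 3024r. Class E-J was thus below the normals, while class K-N overlapped them. Its class difference ran opposite to that of SOS1, with a class E-J minus class K-N difference of -0.84 for SOS2 and of 0.70 for SOS1.

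In the B-cell set SOS2 averaged 10.02 ± 0.31 (SD, n = 4), against 11.12 ± 0.26 in the normals (SD, n = 3), with no overlap. The log2 difference of -1.10 (standard error 0.27, 95% interval -1.73 to -0.47) lay just outside the threshold of 0.05 (limma adjusted p = 0.0511). It came inside the threshold under 9 of 20 alternative settings, with adjusted p between 0.0128 and 0.0486. Under the others adjusted p was as high as 0.187. Mean T-cell markers were lower too, at 6.68 to 7.95 in the 4 lymphomas of the set and 9.56 to 10.17 in the 3 normals of the test. Myeloid means parted the same arrays, at 7.90 to 8.76 and 10.36 to 11.23. So did stromal and endothelial means, at 6.40 to 7.53 and 9.88 to 10.38. Within the set, RB03 had the lowest SOS2, 9.60, but the highest T-cell marker mean, 7.95. The part of these markers in the result was not tested.

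RASGRP1 (478255, 2 probe sets) encodes the diacylglycerol-responsive exchange factor that links the T-cell receptor to RAS, as known best from mouse, and that B cells also express. Class E-J had log2 signals from 11.20 in FS21 over a median of 11.75 to 12.58 in RB16. In class K-N the values were 11.47 in RB07, 12.65 in RB10, 11.48 in FS25 and 11.58 in NE45, against 11.23 in 0063, 10.71 in 2970, 10.36 in 3024l and 10.43 in 3024r. The highest normal, 0063, exceeded only 1 lymphoma, FS21. In this mean of 2 probe sets, tumours of both classes sat at about the same level. The values were 11.86 ± 0.50 in class E-J (SD, n = 6) and 11.79 ± 0.57 in class K-N (SD, n = 4), against 10.79 ± 0.41 in the normal dogs (SD, n = 3). The probe sets ordered the classes differently. Class E-J and class K-N averaged 11.87 and 12.18 on Cfa.7809.1.A1_at, and 11.84 and 11.41 on CfaAffx.13731.1.S1_s_at. Only class K-N cleared all normals on the former and only class E-J on the latter.

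Over all lymphomas the log2 difference of RASGRP1 from normal was 1.04 (standard error 0.33, 2.05-fold, limma adjusted p = 0.0898). It was the member with the smallest p in that comparison, and it passed under 3 of 27 alternative settings with adjusted p of 0.0371 to 0.0475. Under the others adjusted p was as high as 0.354. In the B-cell set the difference was 0.96 (standard error 0.38, adjusted p = 0.16), with FS21 overlapping the normals. Both probe sets gave a positive difference over all lymphomas, 1.36 for Cfa.7809.1.A1_at and 0.71 for CfaAffx.13731.1.S1_s_at. They disagreed on single arrays. Cfa.7809.1.A1_at had its 2 highest values in RB16 (13.48) and RB10 (13.31), whereas CfaAffx.13731.1.S1_s_at had its highest in NE41 (12.37), and 11.67 in RB16.

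RASGRP3 (611329, 1 probe set) encodes a diacylglycerol-responsive exchange factor that acts below the B-cell receptor, as known from mouse and from cultured B-cell lines. Class E-J had log2 signals of 8.26 in NE41, 10.08 in RB16, 10.14 in FS21, 10.16 in FS22, 10.57 in NE42 and 10.64 in RB03. Class K-N had 7.07 in RB07, 7.25 in RB10, 6.93 in FS25 and 5.74 in NE45. The normals lay between these, with 9.26 in 0063, 9.52 in 2970, 8.97 in 3024l and 9.06 in 3024r. Class E-J exceeded class K-N without overlap, by a mean of 3.23 on the log2 scale (9.38-fold). NE41 was the exception within class E-J and lay below every normal. NE45 was the only array on which the RASGRP3 signal was under 100.

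The split of RASGRP3 followed the classes and not the diagnosis on the labels. RB07 and RB10, labelled B-cell, sat with the T-cell lymphomas FS25 and NE45, and FS22, labelled T-cell, sat with the B-cell lymphomas. B-cell lymphomas averaged 9.15 ± 1.57 (SD, n = 7) and T-cell lymphomas 7.61 ± 2.29 (SD, n = 3), and the difference of 1.53 did not pass (95% interval -0.89 to 3.96, limma adjusted p = 0.96). Over all lymphomas the difference from normal was -0.59 with an interval of -2.75 to 1.57, the widest of the members.

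Against normal nodes, RASGRP3 rose in the B-cell set and was the only member past the threshold in any of the 3 tests. It averaged 10.36 ± 0.29 (SD, n = 4) in the B-cell set and 9.28 ± 0.23 (SD, n = 3) in the normals, a 2.11-fold difference (log2 1.08, standard error 0.26, limma adjusted p = 0.0484). Each of the 4 lymphomas exceeded each normal. NE41, labelled B-cell but outside the set, had 8.26, below every normal. The set was chosen partly for CD79a staining and for lacking a T-cell signature. The rise of a gene that moves with B-cell markers may thus not be independent of the choice. The call was narrow: leaving out any 1 of the 7 arrays lost it, with adjusted p of 0.0616 to 0.165 and differences of 0.97 to 1.20. It was also lost with the spread estimated from all 13 arrays (adjusted p = 0.449), with probe sets tested singly (0.0631), with all genes tested regardless of brightness (0.135), and with 3024l in place of 3024r (0.106).

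RASGRP3 moved with the mean of the B-cell markers, though not with each of them. The B-cell marker mean ran from 4.00 to 7.34 on the class K-N arrays, the lowest for RASGRP3 as well, and from 8.51 to 10.44 on all others. The array with the highest B-cell marker mean, NE41, nevertheless had the lowest RASGRP3 of class E-J. CD79A was 2.55 in FS25 and MS4A1 was 2.89 in RB07. MS4A1 was as high in NE45 (10.89), the array with the lowest RASGRP3, and in RB10 (10.40) as on the normal arrays (9.88 to 11.17), and it was 4.90 in FS22, where RASGRP3 was 10.16. The part of B-cell content in the RASGRP3 values was not tested. In aspirates of mixed cells, fewer cells of a type and less RNA per cell cannot be told apart.

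**Figure D2:**
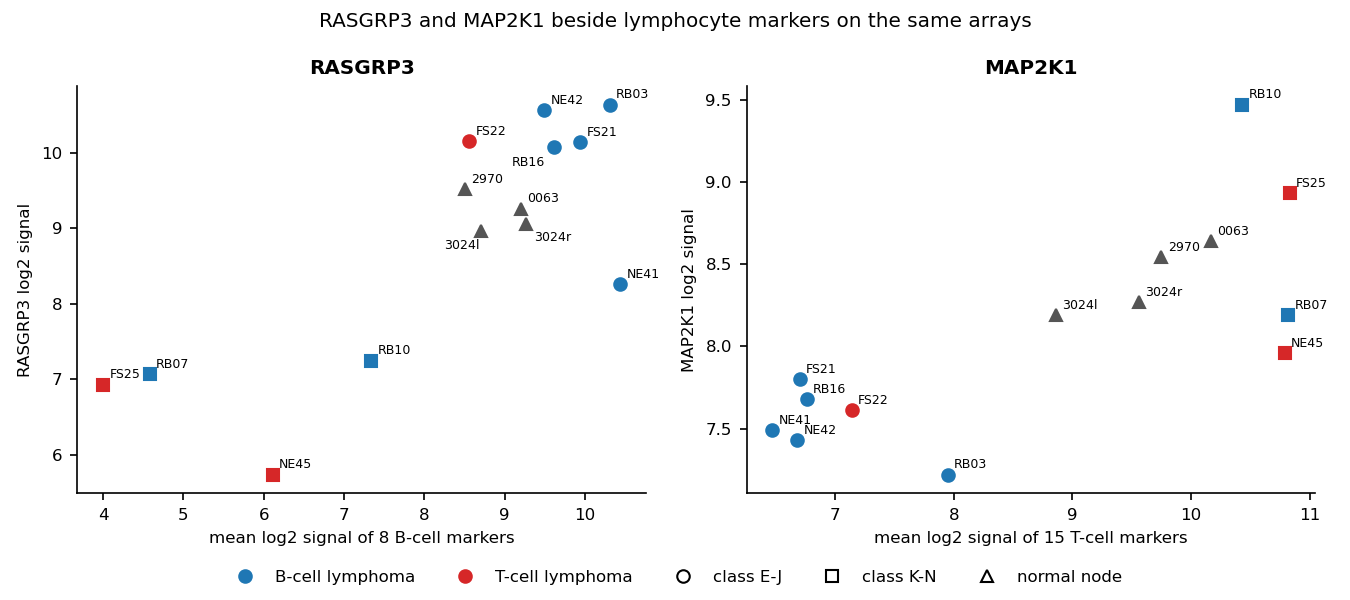
Left, RASGRP3 log2 signal (y axis) against the mean log2 signal of 8 B-cell markers (x axis). Right, MAP2K1 log2 signal (y axis) against the mean log2 signal of 15 T-cell markers (x axis). Points are the 14 arrays, with colour for diagnosis and shape for class. Class K-N forms a group of low RASGRP3 and low B-cell markers, NE41 departs with 8.26 for RASGRP3 at a marker mean of 10.44, and the class E-J arrays hold the lowest MAP2K1 gene means and T-cell marker means.

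The genes whose centred log2 profiles over the 14 arrays lay closest to that of RASGRP3 were EVI2B, ACSL5, SWAP70, TLR1 and PRKCD, with root-mean-square distances of 0.51, 0.56, 0.56, 0.57 and 0.66. EVI2B encodes a leukocyte membrane protein, ACSL5 an enzyme that activates long-chain fatty acids and SWAP70 a protein of activated B cells that acts on Rac. TLR1 encodes a Toll-like receptor and PRKCD a diacylglycerol-responsive protein kinase C. Like RASGRP3, all 5 had their lowest mean in class K-N, which follows from how they were chosen. SWAP70, for example, averaged 10.23 ± 0.28 in class E-J (SD, n = 6) and 7.28 ± 0.44 in class K-N (SD, n = 4), against 9.72 ± 0.27 on the normal arrays (SD, n = 4).

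NRAS (403872, 2 probe sets) encodes the RAS protein itself. It ran in class E-J from 10.11 in FS21 over a median of 10.32 to 10.82 in RB16. In class K-N it was 10.17 in RB07, 11.23 in RB10, 10.97 in FS25 and 10.23 in NE45, against 10.70, 10.65, 10.02 and 10.66 in 0063, 2970, 3024l and 3024r. The 3 groups overlapped, and both the highest lymphomas, RB10 and FS25, belonged to class K-N. The lymphoma-minus-normal log2 difference was -0.19 with an interval of -0.76 to 0.39 (limma adjusted p = 0.74), and the same -0.19 was found in the B-cell set (interval -0.76 to 0.38, adjusted p = 0.633). Between B-cell and T-cell lymphoma it was 0.02 (interval -0.70 to 0.74), and -0.01 once each array was centred on its median.

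BRAF (475526, 1 probe set) encodes a RAF kinase, the first kinase of the cascade. Its log2 signal ran in class E-J from 7.59 in NE42 over a median of 8.34 to 8.93 in RB03. Class K-N had 8.18, 7.64, 7.70 and 7.42 in RB07, RB10, FS25 and NE45, against 8.95, 7.83, 6.76 and 7.27 in the normals 0063, 2970, 3024l and 3024r. The normals themselves spanned the tumour range, with 0063 above every lymphoma and the nodes of dog 3024 below every lymphoma. None of the 3 tests passed. The difference was 0.09 over all lymphomas (limma adjusted p = 0.924), 0.28 in the B-cell set (0.726) and 0.42 for B-cell against T-cell lymphoma (0.96). The first of these was -0.28 without 3024r, so it has no settled sign.

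MAP2K1 (478347, 3 probe sets) encodes MEK1, a kinase that BRAF phosphorylates and that phosphorylates ERK. Class E-J had log2 signals from 7.22 in RB03 over a median of 7.55 to 7.80 in FS21. Class K-N had 8.19 in RB07, 9.47 in RB10, 8.93 in FS25 and 7.96 in NE45, against 8.64, 8.54, 8.19 and 8.27 in 0063, 2970, 3024l and 3024r. In this mean of 3 probe sets, class E-J lay below both class K-N and the normals without overlap, and its spread was narrow (7.54 ± 0.21, SD, n = 6). The mean difference of class E-J from class K-N was -1.10. Class K-N was the more variable (8.64 ± 0.69, SD, n = 4), with RB10 and FS25 above every normal and NE45 below every normal.

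In the B-cell set MAP2K1 averaged 7.53 ± 0.26 (SD, n = 4), against 8.48 ± 0.19 in the normals (SD, n = 3). The log2 difference of -0.95 (standard error 0.24, 95% interval -1.53 to -0.38) did not pass over all genes (limma adjusted p = 0.059), though the groups did not overlap. It passed under 5 of 20 alternative settings, with adjusted p of 0.0182 to 0.0406 and differences of -0.70 to -1.23. Under the others adjusted p was as high as 0.239. Both bright probe sets gave a similar size, -1.23 for Cfa.1354.1.A1_at and -0.97 for CfaAffx.26470.1.S1_s_at. The third, Cfa.13955.1.A1_at, reached a signal of 100 on only 2 arrays (log2 5.15 to 7.46), was too dim to be tested, and lowers the gene mean. In the gene mean, the separation of class E-J from class K-N depends on including Cfa.13955.1.A1_at, although that probe set taken singly overlapped between the classes. The bright CfaAffx.26470.1.S1_s_at taken singly did part the classes, with 7.58 to 8.05 in class E-J and 8.39 to 10.24 in class K-N. Cfa.1354.1.A1_at overlapped between them. In the mean of the 2 bright probe sets, chosen after seeing the data, RB07 had 8.56, within the class E-J range of 8.18 to 8.76, while class E-J stayed below the normals, the lowest of which had 9.17. The probe sets disagreed on RB07, where Cfa.13955.1.A1_at had its highest value, 7.46, and Cfa.1354.1.A1_at its second lowest, 8.73. Arrays low in MAP2K1 were also low in T-cell markers, whose mean did not exceed 7.95 in class E-J and was at least 8.86 elsewhere. RB07, low in the mean of the bright probe sets but above all of class E-J on CfaAffx.26470.1.S1_s_at, had a T-cell marker mean of 10.82. NE45 lay below every normal in the gene mean and in the mean of the bright probe sets (9.04). Its T-cell marker mean was 10.79. The part of T-cell content in these values was not tested.

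**Figure D3:**
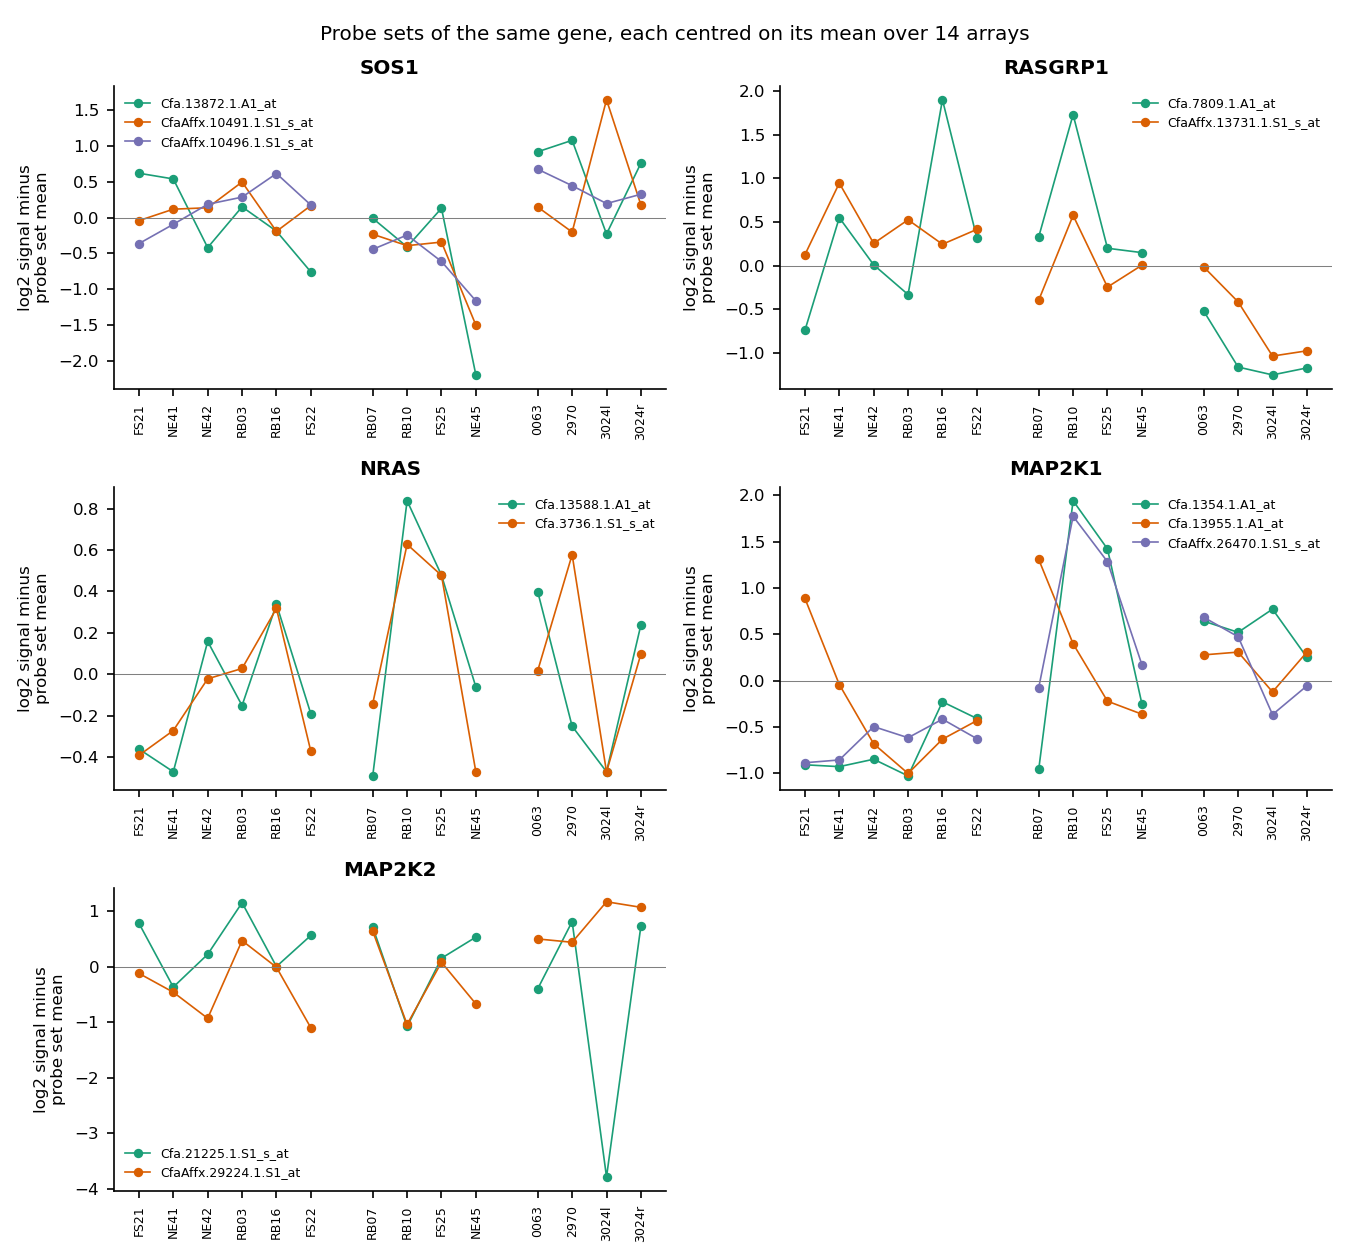
Log2 signal of each probe set minus its own mean over the 14 arrays (y axis) on each array (x axis), for the 5 members with more than 1 probe set. Lines join the arrays of class E-J (left), class K-N (middle) and normal nodes (right), with 1 colour per probe set. The bright probe sets of MAP2K1 peak together in RB10, at 11.63 and 10.24 before centring, whereas the probe sets of MAP2K2 part on 3024l, at 3.74 and 9.07.

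MAP2K2 (611939, 2 probe sets) encodes MEK2, which shares the substrates of MEK1. Class E-J ran from 7.30 in NE41 over a median of 7.58 to 8.52 in RB03. Class K-N had 8.39 in RB07, 6.65 in RB10, 7.83 in FS25 and 7.65 in NE45, against 7.76, 8.34, 6.41 and 8.62 in 0063, 2970, 3024l and 3024r. RB10, the highest array for MAP2K1, was the lowest lymphoma for MAP2K2. The groups overlapped throughout. The value of 3024l rests on probe sets that disagree, with 3.74 for Cfa.21225.1.S1_s_at and 9.07 for CfaAffx.29224.1.S1_at. The difference from normal was -0.55 over all lymphomas (limma adjusted p = 0.411) and -0.33 in the B-cell set (adjusted p = 0.577), and with 3024l in place of 3024r they became 0.19 and 0.41. The probe sets also disagreed in the tests, which leave out 3024l. Cfa.21225.1.S1_s_at differed by -0.11 over all lymphomas and 0.16 in the B-cell set (limma adjusted p = 0.913 and 0.841). CfaAffx.29224.1.S1_at differed by -0.98 and -0.82 (adjusted p = 0.17 and 0.226).

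Across all 10 lymphomas and the 3 normal dogs, 0 of the 8 members passed the limma test at an adjusted p under 0.05, and 1, RASGRP1, had an unadjusted p under 0.05. In this comparison 5.05% of all genes passed, and 20.7% had an unadjusted p under 0.05. The members' median log2 difference was -0.53, against -0.13 for all genes tested. In the B-cell set against the same normals, 1 of 8 passed, while 8.20% of all genes did, 2.35% as higher in the lymphomas. The unadjusted p was under 0.05 for 4 members, SOS2, RASGRP1, RASGRP3 and MAP2K1, and for 27.5% of all genes. Here 4 of 8 members did not overlap with the normals, against 29.8% of all genes. Of these members 1 was higher and 3 were lower, against 12.6% and 17.2% of all genes. The B-cell set comparison had a median of -0.26 for the members and -0.08 for all genes. Both comparisons used the same 3 normal arrays and share 4 lymphomas. Between the 7 B-cell and the 3 T-cell lymphomas 0 of 8 members passed, as did 0 of all 9295 genes (0%) by limma and by the methods' t-test, and no member reached an unadjusted p of 0.05, which 348 genes (3.74%) did. The largest value in that comparison after RASGRP3 was that of SOS1, 0.68 (interval -0.07 to 1.44). Within clinic the SOS1 difference was 0.28 at FS and 1.70 at NE and that of RASGRP3 was 1.60 and 3.68, with 3 dogs at each clinic and no test. RB had no T-cell case.

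**Figure D4:**
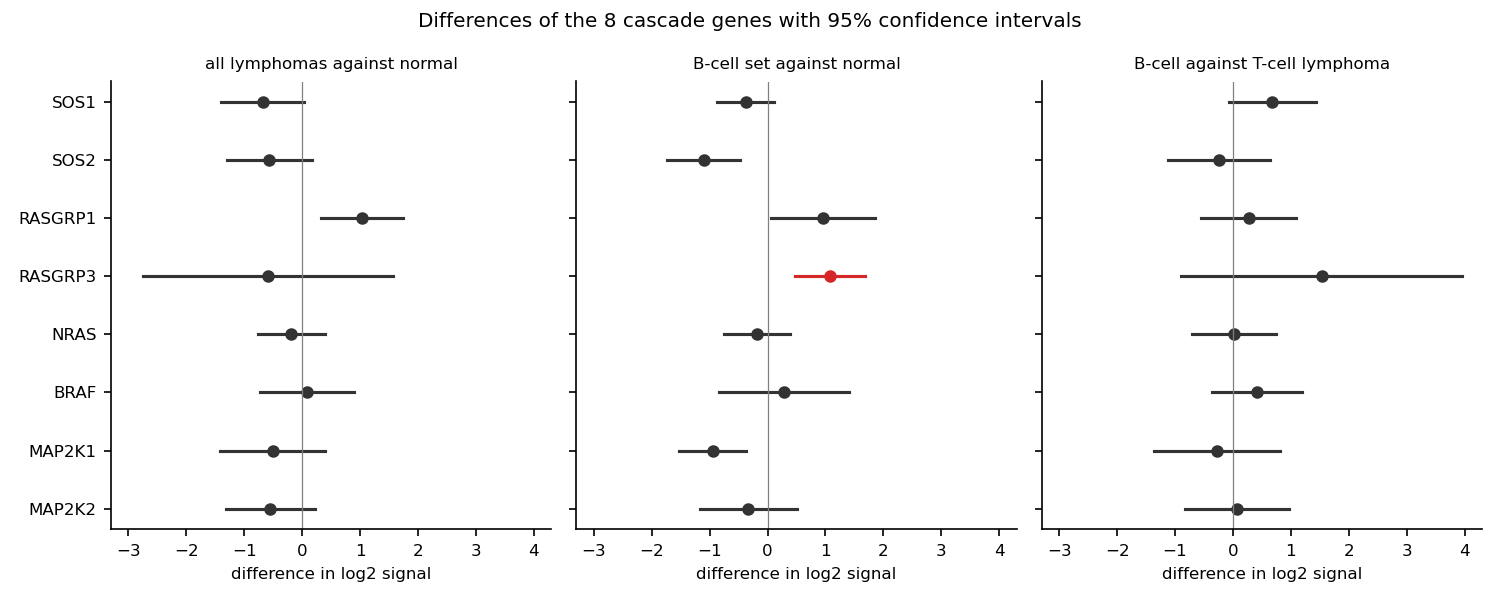
Difference in log2 signal (x axis) of the 8 members (y axis) for all lymphomas against normal (left), the B-cell set against normal (middle) and B-cell against T-cell lymphoma (right). Points are limma estimates and bars their 95% confidence intervals, with red for an adjusted p under 0.05 over all genes. RASGRP3 in the B-cell set is the only red point, and its intervals in the other comparisons are the widest.

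Genes around the cascade were described from lists of pathway members. Of the other RAS proteins and exchange factors, 0 of 8 tested genes passed in any comparison. Among them RASGRP2, which activates the RAS relative RAP1, differed by 0.05 over all lymphomas and 0.00 in the B-cell set. HRAS was dim, with log2 signals of 2.36 to 5.89 in the lymphomas and 5.06 to 6.69 on the normal arrays, and was not tested. ARAF, another RAF kinase, differed by -0.31 over all lymphomas (adjusted p = 0.509) and its value in the B-cell set was -0.24.

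In the B-cell set, where 8.20% of all genes passed, 1 of 10 tested RAF, ERK and scaffold genes rose and 0 fell. It was LAMTOR2, part of the complex that holds MEK1 on late endosomes, at 12.63 ± 0.25 in the B-cell set (SD, n = 4) and 11.49 ± 0.26 in the normals (SD, n = 3, limma adjusted p = 0.0397). Of 11 RAS GTPase activators and other brakes, 1 fell. RASA3, a GTPase activator that turns RAS and RAP1 off, was at 9.75 ± 0.26 in the B-cell set and 10.80 ± 0.03 in the normals (adjusted p = 0.0401), while 3024l, outside the test, had 7.68. The median of this list was -1.03 over all lymphomas, where none passed, against -0.13 for all genes. In the same comparison the median was -2.76 for myeloid markers (6 of 11 fell), -2.25 for stromal and endothelial markers (5 of 8 fell) and -1.52 for T-cell markers (0 of 15 passed), and their part in the shift of the list was not tested.

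In the B-cell set, where 8.20% of all genes passed, 3 of 14 adaptors and genes of diacylglycerol signalling upstream of RAS fell and 0 rose. PRKCQ, the protein kinase C of T-cell receptor signalling, was at 5.55 ± 1.32 in the B-cell set and 8.95 ± 0.41 in the normals (log2 difference -3.40, limma adjusted p = 0.0345). LAT, the membrane adaptor of the T-cell receptor, was at 5.01 ± 1.06 and 7.54 ± 0.05 in the same groups (-2.53, adjusted p = 0.0397), while 3024l, outside the test, had 5.14. LCP2, which encodes its partner SLP-76, was at 9.23 ± 0.49 in the B-cell set and 10.55 ± 0.13 in the normals (-1.32, adjusted p = 0.0472). PRKCQ and LAT, unlike LCP2, had signals under 100 on all 4 arrays of the B-cell set. These 3 genes act below the T-cell receptor, and 9 of 15 T-cell markers fell in the same comparison. CD3E, for instance, differed by -3.17. The study chose the B-cell set partly for lacking a T-cell signature on the same RNA, so the fall of such genes is not independent of the choice, and the part of T-cell content was not tested.

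Of 13 ERK substrates and output genes, MYC, a transcription factor stabilised by ERK, rose in the B-cell set to 12.21 ± 0.22, against 11.13 ± 0.17 in the normals (limma adjusted p = 0.038), and none fell. In that comparison 8.20% of all genes passed, 2.35% as higher. Over all lymphomas ETV5, an ETS factor that ERK signalling induces, fell to 6.46 ± 1.30 (SD, n = 10), against 9.66 ± 0.68 in the normals (SD, n = 3, limma adjusted p = 0.0295). Normal node 3024l, outside the test, had 6.31, below the lymphoma mean, and the 4 normal arrays averaged 8.82 ± 1.76 (SD). Of the 10 lymphomas, 5 had an ETV5 signal under 100. No gene of the other pathway lists passed over all lymphomas, where 5.05% of all genes passed and myeloid and stromal markers fell as given above. These calls rest on few arrays. With 1 of the 7 arrays of the B-cell set comparison left out in turn, LCP2 passed in 0 fits, RASA3, LAMTOR2, LAT and MYC in 1 each and PRKCQ in 2, and ETV5 passed in 10 of 13 and was lost without 0063, 2970 or 3024r. Between B-cell and T-cell lymphoma 0 genes of any list passed. Marker lists shifted in the same tests. In the B-cell set 8 of 11 myeloid and 6 of 8 stromal and endothelial markers fell and 2 of 8 B-cell markers rose, and their part in the values of the cascade genes was not tested.

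**Figure D5:**
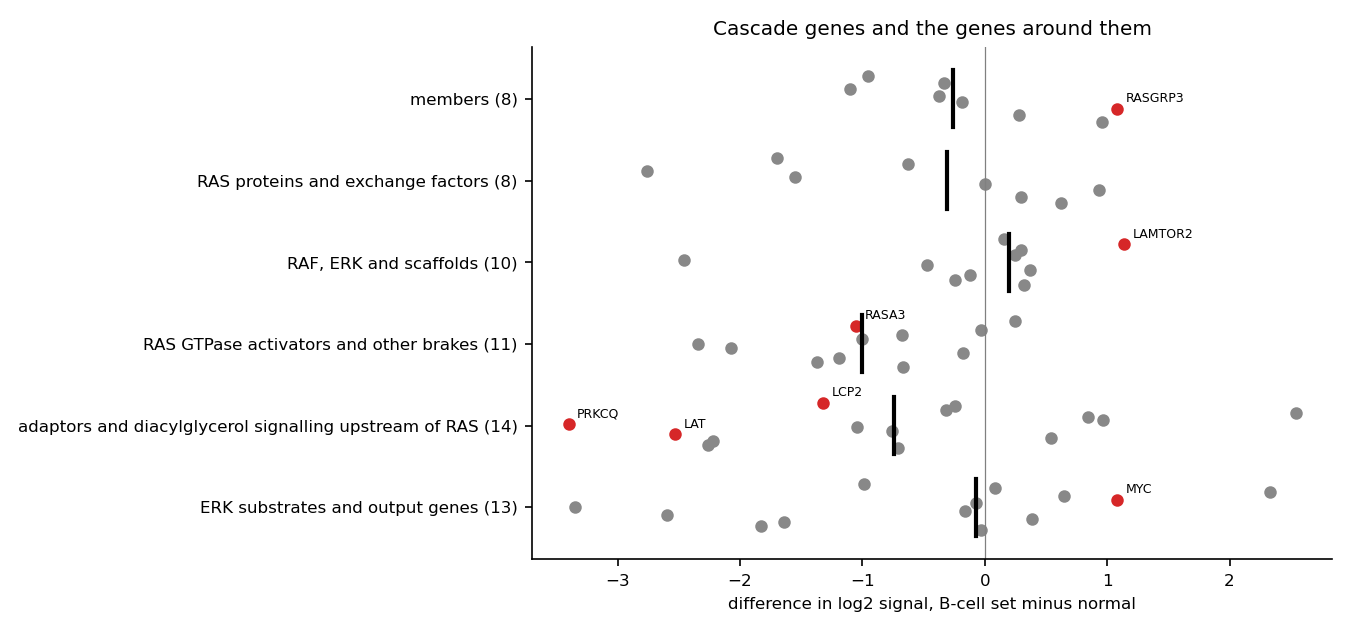
Log2 signal of the B-cell set minus that of normal nodes (x axis) for the members and for the genes of 5 pathway lists (y axis, number of genes tested in brackets). Points are genes, spread vertically for legibility, black bars are list medians, and red, named points passed at an adjusted p under 0.05 over all genes. The named points are 1 member, RASGRP3, and 6 genes of the lists, of which PRKCQ lies farthest from 0 at -3.40. Of all genes tested, 8.20% passed.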

How the data were processed

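RNA of 14 aspirates was amplified and hybridised to the GeneChip Canine Genome V2.0 Array. The authors summarised probe intensities per probe set with MAS 5.0, and the deposited intensity values are linear signals that share a trimmed mean of 500 across arrays. Of 43035 probe sets, 29703 are in the gene table of the array, 439 with several symbols, and 13332 have no entry. Log2 signals, not rescaled, were averaged per symbol. Sequences and coordinates of the members were not used here.

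Genes with a signal of at least 100 on at least 3 of 13 arrays (without 3024l) were tested with limma 3.58.1 (R 4.3.3; lmFit, then eBayes) and p-values were adjusted by Benjamini-Hochberg over 9295 genes, with a threshold of 0.05. Only the arrays of a comparison entered its fit. Intervals are 95% confidence intervals. The script was tested on simulated data. Alternatives were the filter, scaling, a pseudocount of 50, a floor of 100, the gene summary, the moderation, the methods' t-test, the array of dog 3024, the arrays in the fit, the clinic and each array left out in turn. The text names every member, list genes past the threshold (at most 4 per list and comparison), HRAS, ARAF, RASGRP2 (chosen after its values were seen), and the 5 genes closest to any member with an SD above 1. The members and lists were chosen with earlier results of these data known. Each array is 1 dog apart from the pair of dog 3024, and precision is limited by this number. The arrays' processing batches are not given in the sources used here.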

Additional observations from a re-analysis of the deposited data

Results flagged for a closer look

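Each member was checked for arrays far from the rest of their group, in 32 groups of 4 to 10 arrays, and 2 arrays stood out. Chance alone picks out about 1 in 20 groups. In SOS1, the T-cell lymphoma NE45 had a log2 signal of 7.66, against 8.93 for the next lowest and 9.59 for the highest of the 10 lymphomas. In NRAS, normal node 3024l had 10.02, against 10.65 for the next lowest and 10.70 for the highest of the 4 normal arrays. These are means of 2 probe sets, on both of which 3024l was the lowest normal. On Cfa.13588.1.A1_at it had 9.43, near 2970 with 9.65. On Cfa.3736.1.S1_s_at it had 10.61, against 11.10 in 0063 and 11.66 in 2970.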

How the results depend on the processing

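A fit without 1 of the 3 normal dogs has a smaller normal group. For all lymphomas against normal, 469 genes passed. The count was 194 with no filter, 870 with a pseudocount of 50, 1053 with a floor of 100, 1419 by the methods' t-test, 192 with 3024l in place of 3024r and 720 of the probe sets tested singly. Leaving out 1 array gave 36 to 591 genes, with 36 without 2970, 64 without 3024r and 129 without 0063. For the B-cell set 762 genes passed, against 193 with no filter, 1568 with the pseudocount, 1748 with the floor, 1183 with means of linear signals, 1303 with an intensity trend and robust variance, 1 by the methods' t-test, 490 with 3024l and 3024r averaged, 128 with 3024l and 358 with all 13 arrays in the fit. Leaving out 1 array gave 47 to 966, with 47 without 2970, 69 without 3024r, 120 without 0063, 414 without NE42, 449 without FS21 and 462 without RB16. Quantile normalization moved the share of calls that were higher to 35.6%, against 23.7%, over all lymphomas and to 40.0%, against 28.6%, in the B-cell set, and the median of all genes to 0.00 and 0.05, against -0.13 and -0.08. For B-cell against T-cell lymphoma 0 genes passed, and 0 to 2 without 1 array. Without FS22, RB07 and RB10, an alternative added after seeing the data, 249 passed and RASGRP3 differed by 3.60 (limma adjusted p = 0.0465). These arrays were picked by lineage markers with which RASGRP3 moves, so this is no independent support.

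SOS1 over all lymphomas passed by the methods' t-test (adjusted p = 0.0294). RASGRP3 in the B-cell set also missed the threshold by the methods' t-test (0.0808) and with 3024l and 3024r averaged (0.0647). Values near 0 changed sign. With 3024l in place of 3024r, NRAS became 0.03 over all lymphomas and 0.02 in the B-cell set, and MAP2K2 became 0.19 and 0.41. MAP2K2 in the B-cell set was 0.04 with 3024l and 3024r averaged. On the probe set of highest signal, SOS1 in the B-cell set was 0.06, MAP2K2 there 0.16 and MAP2K2 between B-cell and T-cell lymphoma -0.21. With clinic as a block, B-cell against T-cell lymphoma gave -0.06 for RASGRP1 and -0.18 for NRAS. NRAS in that comparison was -0.01 with arrays centred on their medians and -0.19 without FS22, RB07 and RB10. With 1 array left out, BRAF ran from -0.28 to 0.55 over all lymphomas and from -0.09 to 0.75 in the B-cell set. Between B-cell and T-cell lymphoma NRAS then ran from -0.11 to 0.28, MAP2K1 from -0.55 to 0.11 and MAP2K2 from -0.06 to 0.25. The cause of these changes was not tested. No paired analysis was possible because the tumours and the normal nodes came from different dogs.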
